A study of Arabidopsis thaliana with 20 samples.

Results

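The transcripts described here are the 200 steadiest of the strongly expressed genes in Arabidopsis thaliana rosette leaves over a short day. A probe set, the group of oligonucleotides on the array that reads 1 transcript or a few, was eligible if its deposited signal reached 1000 or more on all 20 arrays, and 2002 of 22746 probe sets did so once 64 control probe sets had been left out. The eligible, here called abundant, probe sets were ranked by the standard deviation (SD) of log2 signal over the 20 arrays, and the 200 with the smallest SD, 9.99% of the abundant ones, were chosen as members. The members were thus selected on their signals, for small differences between the same arrays that carry the genotype, time and run comparisons, and their calls in those comparisons are given as a description. Of the members, 78 name 1 gene in the platform annotation, 11 name several genes and 111 are not listed in it. The 111 are known here by probe set only, and no gene is named for the 11.

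Arrays came from Atss3, a mutant in starch synthase 3, and from wild type (WT). Both genotypes were 6 weeks old and grew in short days (8 h light, 16 h dark). Leaves 5 to 8 of 16 plants were pooled for each sample, and harvests were made at 1 h and 4 h in the light and at 8.5 h, 12 h and 16 h after lights on, in the dark. Each genotype and time had 2 arrays, 1 from each of 2 separately randomized runs of the experiment, so that Atss3 and WT had 10 arrays each.

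A leaf cell keeps some messages at a steady level while the clock, light and sugar supply drive others up and down through the day. Transcripts of general cell upkeep (protein turnover, vesicle traffic, respiration, vacuole acidification) are commonly regarded as steady, and some of them serve as references against which other genes are measured. In a scaled array experiment steadiness is always relative to the average signal of the array. The samples are pooled leaf tissue, so fewer cells of a type and less RNA per cell cannot be told apart.

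The arrays read as photosynthetic leaf. LHCB4.1, an antenna protein of photosystem II, ran from 16358 to 29668 in Atss3 and from 15906 to 26290.1 in WT, and PSAE-1, a subunit of photosystem I, from 13852 to 25816 in Atss3 and from 12402 to 26013 in WT. PYK10, a beta-glucosidase abundant in roots, stayed between 92.4 and 696 over the 20 arrays, and FMA, a guard cell transcription factor, between 131 and 232. The sugar exporter SWEET11 of the phloem parenchyma gave 3002 to 8258 over the 20 arrays. LHCB4.2, a second antenna gene, varied more, from 3673 to 25051 in Atss3 and from 4746 to 21142 in WT. The remaining markers considered had no named probe set and were not used here. SS3 had none either, so the mutant label was not checked through its own transcript. Every array had a median signal between 151.7 and 178.4 and a 2% trimmed mean of 500.04 to 500.05 with controls included.

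Member SDs ran from 0.0933 to 0.180 on the log2 scale with a median of 0.157, against a median of 0.307 and a maximum of 1.62 for the 1802 abundant probe sets that were not chosen. The highest of the 20 arrays exceeded the lowest by 1.28-fold to 1.79-fold for single members, with a median of 1.49-fold, against a median of 2.17-fold for the others. The range stayed under 1.5-fold for 105 members and for 2 of the others. As a coefficient of variation of the linear signal, the median was 10.8% for members and 20.9% for the others.

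**Figure D1:**
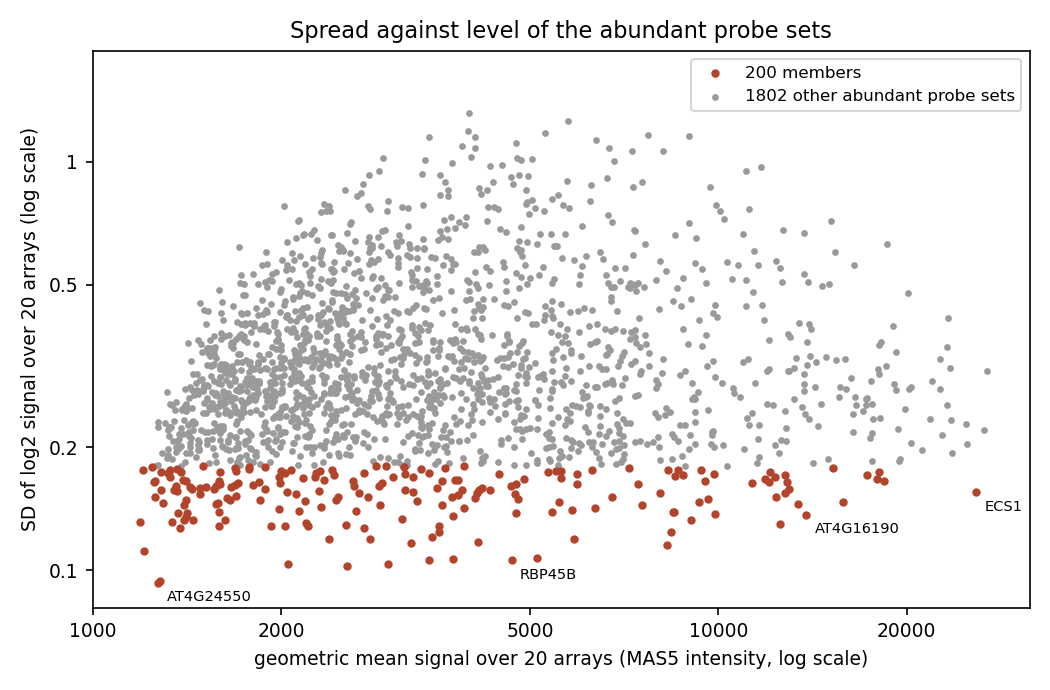
SD of log2 signal (log scale) against geometric mean signal in MAS5 intensity units (log scale) for the 200 members (red) and the 1802 other abundant probe sets (grey), 1 point per probe set over 20 arrays. Members lie under an SD of 0.180 at every level, from geometric means of 1190 to 25793.

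Members were not confined to 1 level of expression. Their geometric mean signal ran from 1190 to 25793 with a median of 2851, and the median of the others was 2985. The share of abundant probe sets that were members was 13.8% of the 487 with a geometric mean between 1000 and 2000, 8.09% of the 816 between 2000 and 4000, 6.74% of the 460 between 4000 and 8000, and 15.1% of the 239 at 8000 and above. Both the dimmest and the brightest abundant probe sets thus held more members for their number than the middle. At the dim end the floor itself takes part, since a probe set near 1000 with a large spread falls under the floor on some array and is not eligible.

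The cut at rank 200 did not fall in a gap. Just inside stood MAB1 at 0.1793, an unlisted probe set at 0.1794, AT5G07020 and AT3G07480 at 0.1799 each, and AT2G20230 at 0.180. Just outside stood AT3G01340, a SEC13 homologue of the vesicle coat COPII, at 0.1802, AT4G38490 at 0.1803, the chloroplast thioredoxin gene ATHM2 at 0.1803, and 2 unlisted probe sets at 0.1804 and 0.1806.

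The steadiest of all was AT4G24550, the medium (mu) subunit of AP-4, an adaptor complex that sorts cargo at the trans-Golgi network. Its signal was 1143 at the lowest, 1256 at the median and 1336 at the highest in Atss3, against 1134, 1303 and 1458 in WT. Every Atss3 array lay within the range of the WT arrays, 2 WT arrays lay above every Atss3 array, and the SD over all 20 was 0.0933. Of its small variation 37.6% lay between the runs and 5.89% between the harvest times.

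RBP45B, an RNA-binding protein that binds poly(A) tails, was the second steadiest member with a gene name, at rank 7. Its signal ran from 4175 to 5031 with a median of 4833 in Atss3, and from 3976 to 5270.1 with a median of 4654 in WT. AT1G67280, a glyoxalase I that clears the glycolytic by-product methylglyoxal, stood at rank 13 with 3600 to 4635 (median 4116) in Atss3 and 3565 to 4609 (median 4054) in WT. In both genes the genotypes overlapped throughout. AT5G03880, at rank 14, was brighter at 5276 to 6557 (median 5545) in Atss3 and 5048 to 6638 (median 6188) in WT.

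AT3G01920 at rank 10 was among the dimmest members, with 1060.0 to 1346 (median 1171) in Atss3 and 1089.6 to 1456 (median 1219) in WT. AT1G04420 at rank 16 gave 1938 to 2586 (median 2421) in Atss3 and 2218 to 2656 (median 2356) in WT. AT2G44310 at rank 17 gave 2804 to 3854 (median 3535) in Atss3 and 3000 to 3882 (median 3547) in WT. The genotypes overlapped in each of these genes too. Also in the first 25 ranks were AT2G20725 at 1171 to 1482 (median 1349) in Atss3 and 1271 to 1600 (median 1432) in WT, and AT5G54540 at 2956 to 4105 (median 3470) in Atss3 and 3277 to 4230.0 (median 3608) in WT.

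**Figure D2:**
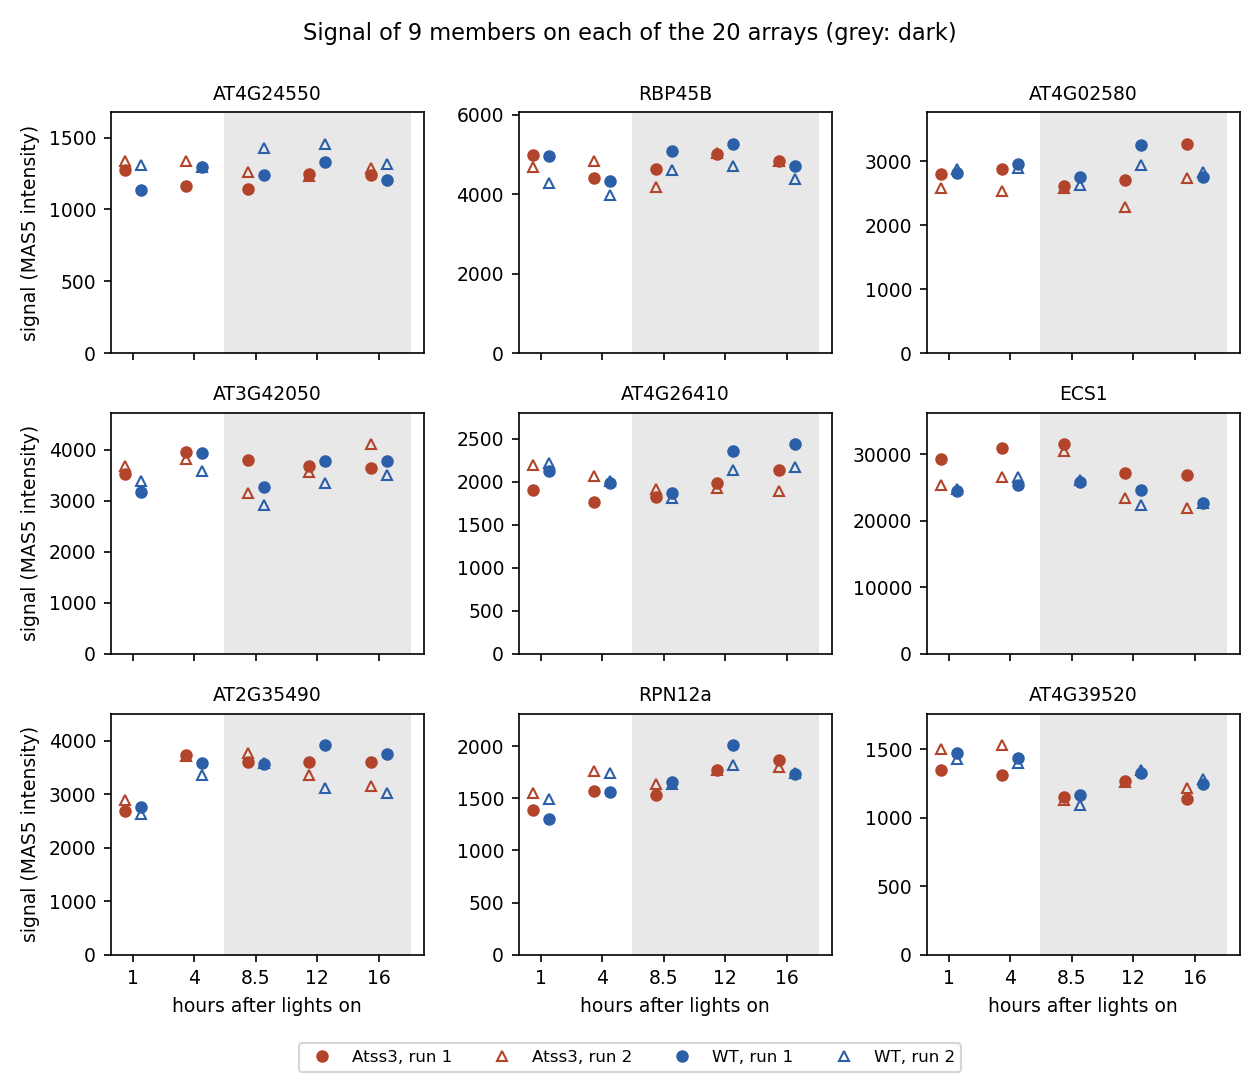
Signal in MAS5 intensity units, from 0, of 9 members on each of the 20 arrays against hours after lights on, with Atss3 (red) left of WT (blue), run 1 as filled circles and run 2 as open triangles, and the dark shaded. AT4G24550 stays between 1134 and 1458, while AT2G35490, RPN12a and AT4G39520, 3 of the 22 members called over time, differ by 0.40, 0.36 and 0.34 on the log2 scale between their highest and lowest time.

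Of 32 genes considered that leaf studies use as references, 12 had a named probe set, 3 were abundant and 1 was a member. Among all abundant probe sets 9.99% were members. The reference genes that were not abundant fell under the floor on at least 1 array and could not be members, whatever their SD. The member was AT4G26410, a gene of unknown function often chosen as a reference, at rank 24 with an SD of 0.128. Its signal was 1759 to 2191 (median 1921) in Atss3 and 1804 to 2433 (median 2129) in WT, and the 2 genotypes overlapped.

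The cytosolic glyceraldehyde-3-phosphate dehydrogenase GAPC2 stood at rank 521 of the abundant probe sets with an SD of 0.225, at 12181 to 19653 in Atss3 and 11667 to 17774 in WT. The tubulin gene TUB6 stood at rank 817 with an SD of 0.265, at 1305 to 2852 in Atss3 and 1304 to 2157 in WT. Both had a larger SD than any member. AT2G28390 was as steady as the members with an SD of 0.139 but had a signal of 393 to 594 and so was not eligible. The ubiquitin-conjugating enzyme PEX4, with an SD of 0.238, and AT5G46630, with 0.241, fell under 1000 on at least 1 array each.

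The functional lists that follow were assembled from loci with the members known, so their counts are descriptions. Lists drawn by gene symbol held 0 members of 6 abundant probe sets for the ubiquitin system. They held 0 of 3 each for vacuolar proton pumps, mitochondrial respiration and the cytoskeleton, and 0 of 8 for nuclear photosynthesis. By symbol, members were 1 of 1 for the proteasome, 1 of 3 for vesicle traffic and 1 of 2 for glycolysis. The remaining symbol lists with any abundant probe set had 1 each and no member. Among the 848 abundant probe sets that name 1 gene, 78 or 9.20% were members, with a median SD of 0.290 over all 848. Of the 848, 520 were called over time, 250 as higher and 173 as lower in the dark (limma, adjusted p under 0.05). Each list below is set beside those values.

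Mitochondrial respiratory chain and ATP synthase genes supplied 7 of 36 abundant probe sets, or 19.4%, with a median SD of 0.208 over the 36. AT4G02580, the 24 kDa subunit of complex I, which takes electrons from NADH, stood at rank 15 with 2286 to 3280 (median 2659) in Atss3 and 2631 to 3254 (median 2859) in WT. AT4G32470, a complex III subunit of the QCR7 type, gave 3278 to 4190 (median 3660) in Atss3 and 3284 to 4506 (median 3918) in WT. AT1G76200, AT2G02050, AT3G03070, AT4G00585 and AT2G02510, all complex I subunits, had SDs of 0.157, 0.158, 0.163, 0.164 and 0.173. A complex I or complex III subunit was thus behind each of the 7 members of the list. Others of the list lay well outside, up to AT4G21105 with an SD of 0.398.

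Over the whole respiratory list, 7 of 36 probe sets were called over time, 13 as higher and 2 as lower in the dark (limma, adjusted p under 0.05). Over the 848 probe sets these counts were 520, 250 and 173. None of the 7 members was called in either comparison, nor had any an unadjusted p under 0.05. The rule chose them for small differences, so nothing is read from that. The count of 7 depends on where the line is drawn, since 2 of the 36 were among the 100 smallest SDs and 18 among the 400 smallest. Of the 848 probe sets, 37 were among the 100 smallest and 168 among the 400 smallest.

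Membrane traffic genes supplied 5 of 16 abundant probe sets, with a median SD of 0.206. The number was 1 of 16 over the WT arrays alone, 2 over run 1 alone and 2 by the SD of the group means, and ran up to 6, while no probe set of the list was eligible with a floor of 2000. Beside the AP-4 mu subunit they were AT5G05010, the delta subunit of the COPI coat that retrieves proteins to the endoplasmic reticulum, AT5G54750, a BET3-type subunit of the TRAPP vesicle-tethering complex, the SNARE YKT61, which fuses vesicles with membranes, and AT2G19790, the small (sigma) subunit of AP-4. Both AP-4 subunits with a place in the list were therefore members, with SDs of 0.0933 and 0.175. AT5G05010 ran from 1492 to 2149 (median 1863) in Atss3 and from 1490.3 to 2216 (median 1798) in WT. AT5G54750 ran from 1145 to 1547 (median 1401) in Atss3 and from 1127 to 1703 (median 1437) in WT.

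Proteasome genes supplied 2 of only 4 abundant probe sets that name a gene. RPN12a, a lid subunit of the regulatory particle that feeds ubiquitinated proteins to the core, gave 1392 to 1864 (median 1701) in Atss3 and 1303 to 2012 (median 1695) in WT. AT1G45000, an ATPase of the regulatory particle base, gave 1345 to 2056 (median 1637) in Atss3 and 1440.3 to 1910 (median 1756) in WT. The vacuolar proton pump, which acidifies the vacuole, had 1 member among 7, the H subunit AT3G42050 at rank 19. Its signal was 3152 to 4111 (median 3681) in Atss3 and 2926 to 3934 (median 3447) in WT. The pump's other 6 subunits had SDs of up to 0.285.

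Cytosolic ribosomal protein genes, the largest list, supplied 1 member among 72 abundant probe sets, or 1.39%. Their median SD was 0.275, 0.317 over the Atss3 arrays and 0.211 over the WT arrays. Over the run 2 arrays it was 0.217 and over the run 1 arrays 0.314. The member was AT5G20290, which encodes ribosomal protein S8, at 10380 to 14605 (median 11971) in Atss3 and 8996 to 13983 (median 12268) in WT. Of the 72, 28 were called over time and 19 as higher in the dark, beside 520 and 250 of the 848 (limma, adjusted p under 0.05). None was lower in the dark at an adjusted or an unadjusted p under 0.05, beside 173 of the 848 at an adjusted p (limma). The count of 1 depends on the choice: it was 11 by the median absolute deviation, 11 over the WT arrays alone, 6 of 45 with a floor of 2000 and 6 of 72 without Atss3 1 h replicate 1, and ran from 0 to 11 over the alternatives.

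Nuclear-encoded genes of the photosynthetic apparatus supplied 3 of 25 abundant probe sets, or 12%, beside 9.20% of the 848. Their median SD was 0.298 over the 25, beside 0.290 over the 848. In the dark 15 of the 25 were lower and 2 higher, beside 173 and 250 of the 848 (limma, adjusted p under 0.05). AT4G01150 (CURT1A, which curves thylakoid membranes) gave 14565 to 19921 (median 19350.5) in Atss3 and 15832 to 22837 (median 16860) in WT. AT1G22700, a photosystem I assembly factor, was the dimmest of the 3 at 1013 to 1289 (median 1165) in Atss3 and 1074 to 1553 (median 1236) in WT. AT5G07020, a thylakoid protein tied to photosystem II under strong light, gave 2947 to 4401 (median 3826) in Atss3 and 3510.2 to 4825 (median 4044) in WT. None of the 3 belongs to the light-harvesting antenna, whose genes LHCB4.1 and LHCB4.2 had SDs of 0.290 and 0.950.

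Genes of the plastid's own genome had the largest median SD of the 8 lists, 0.472 over 44 abundant probe sets, 0.272 over the Atss3 arrays and 0.492 over the WT arrays, and likewise 0.275 over the run 2 arrays and 0.536 over the run 1 arrays. The median Atss3 minus WT difference of the 44 was 0.36 on the log2 scale, and none of the 44 was called for genotype (limma, adjusted p under 0.05). The 1 member was petA, cytochrome f of the electron transport chain, at 7495 to 10328 (median 8973) in Atss3 and 6794 to 10301 (median 8676) in WT. None of the 44 was called over time by limma, and none had an unadjusted p under 0.05, while 1 was lower and none higher in the dark at an adjusted p under 0.05. Over the 848 probe sets 520 were called over time, 173 as lower and 250 as higher in the dark.

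Thiol and peroxide redox genes, which pass reducing power to enzymes, supplied 3 of 14. CcdA, which carries reducing equivalents across the thylakoid membrane, gave 1817 to 2382 (median 2107) in Atss3 and 1902 to 2518 (median 2221) in WT. THX, the chloroplast thioredoxin x, gave 5465 to 8307 (median 6309) in Atss3 and 5162 to 6969 (median 6396) in WT. SRX, a sulfiredoxin that restores overoxidized peroxiredoxins, gave 1570 to 2274 (median 1761) in Atss3 and 1565 to 2337 (median 1983) in WT. The genotypes overlapped in each. The list also held TRXF2 and the glutathione reductase gene GR, with SDs of 0.433 and 0.608.

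**Figure D3:**
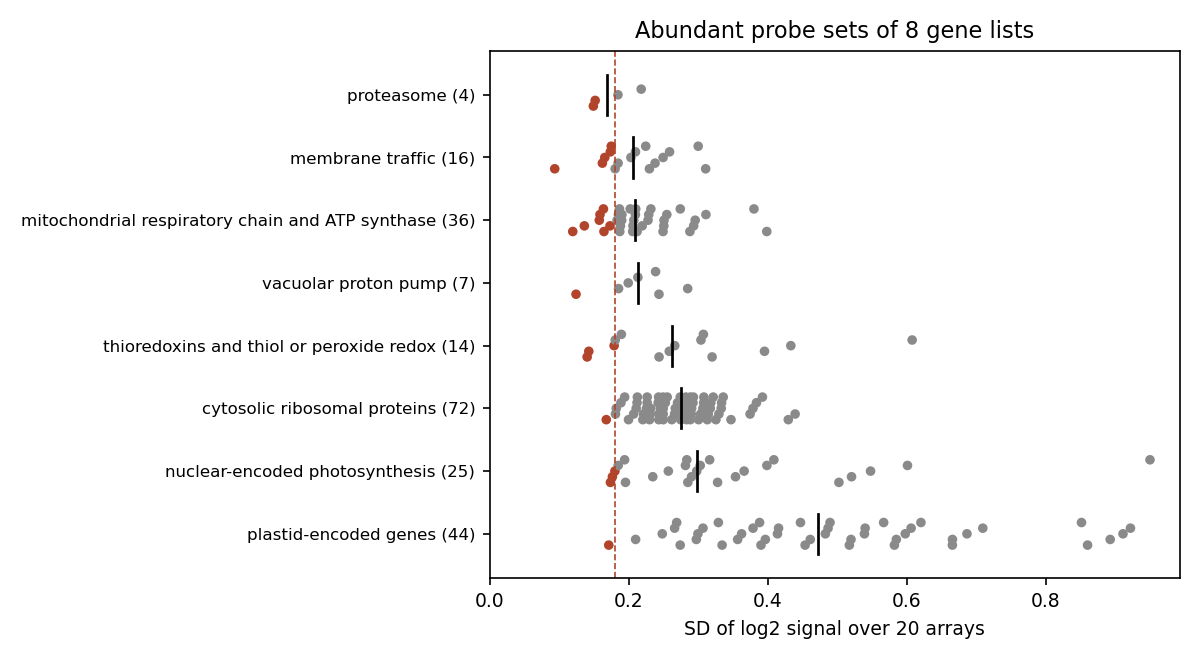
SD of log2 signal over 20 arrays for the abundant probe sets of 8 gene lists, 1 point per probe set, with members in red, others in grey, the list median as a black bar and the largest member SD, 0.180, as a dashed line. Counts of abundant probe sets stand in brackets, and the medians run from 0.168 for the proteasome to 0.472 for plastid-encoded genes.

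The brightest members with 1 gene name were ECS1, with 21950 to 31485 (median 27030.5) in Atss3 and 22306 to 26530 (median 24701) in WT, CURT1A as given above, and AT4G16190, a papain-type cysteine protease gene, with 11753 to 15979 (median 13764) in Atss3 and 12039 to 16191 (median 14227) in WT. TPI, the cytosolic triose phosphate isomerase of glycolysis, gave 9148 to 13207 (median 11266) in Atss3 and 9885 to 14131 (median 10925) in WT. Their SDs were 0.155 for ECS1, 0.173 for CURT1A, 0.137 for AT4G16190 and 0.164 for TPI, within the same range as those of the dim members. Beside AT3G01920 and AT1G22700, the dimmest was AT4G24330, at 1064 to 1412 (median 1263) in Atss3 and 1070 to 1243 (median 1137) in WT.

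The choice does not tell whether steadiness seen in some arrays is also found in others. The rule was therefore applied to 10 arrays at a time among the same 2002 abundant probe sets, and the spread was read in the other 10 arrays. Those 10 took no part in the ranking, but the floor that made a probe set eligible had been applied to all 20. The 200 chosen in run 1 had a median SD of 0.167 in run 2, against 0.279 for the other 1802, and 193 of the 200 lay under the median of the others. The 200 chosen in run 2 had a median SD of 0.189 in run 1, against 0.314, and 190 lay under the median of the others. The sets overlapped in 75 probe sets, 37.5% of each, while 200 make up 9.99% of the abundant probe sets. The overlap was not tested against chance.

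Across genotypes, the 200 chosen in WT had a median SD of 0.198 in Atss3, against 0.316 for the others, with 183 under the others' median. The 200 chosen in Atss3 had a median SD of 0.171 in WT, against 0.291, with 189 under it. These sets shared 71 probe sets, or 35.5% of each. In every direction the spread was wider in the arrays read than in the arrays used to choose, where the medians were 0.127 to 0.146. Probe sets on 1 array are not independent of each other, and the runs and genotypes share the same 5 harvest times, so no p-value is given. With the floor applied in the 10 choosing arrays only, an alternative added after the data were seen, 192, 191, 184 and 190 of the 200 lay under the median of the others, in the order of the 4 readings above.

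**Figure D4:**
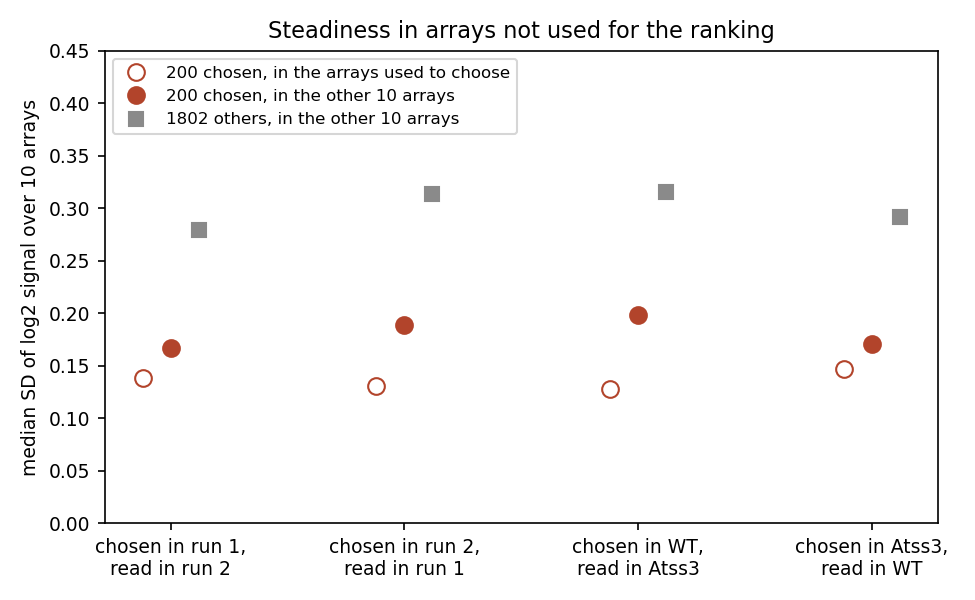
Median SD of log2 signal over 10 arrays for 200 probe sets in the arrays that chose them (open red), for the same 200 in the other 10 arrays (filled red) and for the 1802 others in those other arrays (grey squares). The 200 sit at 0.167 to 0.198 in the arrays not used for the ranking, under the others at 0.279 to 0.316.

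There were 39 members among the 200 when the rule was applied to each run and to each genotype separately. Counting also 4 other measures or scalings of signal and each of the 20 arrays left out in turn, 37 members were chosen every time. Among these 37 were 13 named genes: AT4G24550, RBP45B, AT3G01920, AT1G67280, AT5G03880, AT4G02580, AT2G44310, AT3G42050, AT2G20725, AT4G26410, AT5G54540, ISU1 and THX. ISU1, a scaffold on which mitochondrial iron-sulfur clusters are built, had an SD of 0.140. Each array could be left out with 166 to 194 of the 200 still chosen, and the fewest remained without Atss3 1 h replicate 1.

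The variation that members had was split into time, genotype, their interaction, run and residual. Members were chosen for a small total over these same arrays, so nothing is read from their shares beside those of the others. Time held a median of 37.4% of a member's variation, against 61.2% for the other abundant probe sets and 21.1% if variation were spread evenly over its degrees of freedom. The residual, the difference between the 2 arrays of a group once the run is taken out, held 29.3% for members and 14.01% for the others, with 47.4% if spread evenly. Genotype held 4.57% and 1.64%, genotype by time 12.0% and 6.60%, and run 3.98% and 4.65%, in members and others. Spread evenly, these parts would hold 5.26%, 21.1% and 5.26%. In absolute size the Atss3 minus WT difference over the day had a median of 0.063 in members and 0.083 in others, on the log2 scale. Time was the largest part for 106 members, the residual for 71, run for 12, genotype by time for 8 and genotype for 3.

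In the fit across 15470 probe sets (limma, 10 group means with the run as a block), 22 of 200 members were called over time at an adjusted p under 0.05, where 65.5% of all probe sets tested were called. The rule used this contrast, so nothing is read from the difference. The 22 had group means that differed by 1.20-fold to 1.34-fold between their highest and lowest time, with a median of 1.27-fold. Of the 22, 7 were highest at 1 h, 2 at 4 h, 2 at 8.5 h, 5 at 12 h and 6 at 16 h. Among all 200 members, 39 had their highest mean at 1 h, 37 at 4 h, 23 at 8.5 h, 39 at 12 h and 62 at 16 h. The lowest mean stood at 1 h in 63 members and at 8.5 h in 62. The count of 22 was unstable: leaving out 1 array gave 7 to 19, and every array but Atss3 16 h replicate 2 and WT 1 h replicate 2 lowered it by more than 1.5 times when left out.

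Of the 22 members called over time, 5 name 1 gene. Among members that name 1 gene, AT2G35490, a plastid-lipid-associated (fibrillin) protein of plastoglobules, had the smallest adjusted p for time, 0.0195 (limma). Its geometric mean over 4 arrays was 2745 at 1 h, 3591 at 4 h, 3630 at 8.5 h, 3492 at 12 h and 3369 at 16 h. The 4 arrays at 1 h, at 2639 to 2892, lay under all 16 others, which began at 3019. AT1G64190, a 6-phosphogluconate dehydrogenase of the oxidative pentose phosphate pathway, had means of 1636, 2030.2, 1990.4, 1928 and 1683 at the same 5 times (adjusted p = 0.0280, limma), low at the first and the last.

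AT4G39520, a DRG-type GTPase, had means of 1437, 1416, 1134, 1299.8 and 1217 at those harvests, earliest first (adjusted p = 0.0223, limma). Its 4 arrays at 8.5 h, shortly after lights off, ran from 1089 to 1168. RPN12a had means of 1432, 1659, 1615, 1840.3 and 1785 (adjusted p = 0.0301, limma), with 1303 to 1549 at 1 h and 1770.4 to 2012 at 12 h. Over the 26 alternative fits the adjusted p for time reached 0.131 for AT2G35490, 0.101 for AT1G64190, 0.0637 for AT4G39520 and 0.190 for RPN12a.

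Between dark (12 and 16 h) and light (1 and 4 h), 32 members were called, 21 higher and 11 lower in the dark, where the fit called 51.3% of everything tested, 29.3% as higher and 22.0% as lower. The later harvests were also the dark ones, so lack of light and the hour of harvest cannot be told apart. The 32 differed by a median of 0.227 on the log2 scale and the largest difference over all members was 0.295. The scale itself bears on values of this size: the median of all probe sets was 0.0489 higher on the log2 scale on dark than on light arrays under the deposited scaling.

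RPN12a gave 1735 to 2012 (median 1786) on the 8 dark arrays and 1303 to 1765 (median 1556) on the 8 light arrays, with 6 dark arrays above every light array. The difference was 0.23 ± 0.067 on the log2 scale (SE; adjusted p = 0.0109, limma), or 1.18-fold. AT5G54750 gave 1311 to 1703 (median 1527) in the dark and 1127 to 1444 (median 1298) in the light, a difference of 0.23 ± 0.072 (SE; adjusted p = 0.0156, limma), with 7 dark arrays above every light array. AT5G05010 gave 1680.2 to 2216 (median 1881) in the dark and 1490.3 to 2042 (median 1681) in the light, a difference of 0.21 ± 0.075 (SE; adjusted p = 0.0291, limma). These 3 genes were each higher in the dark by under 1.2-fold, and light and dark arrays overlapped in all 3. Of the 5 membrane traffic members 3 were called, the other being YKT61 at 0.20 (adjusted p = 0.0479, limma). Not called were AT4G24550 at 0.024 and AT2G19790 at 0.14 (adjusted p = 0.768 and 0.184, limma). The other proteasome member, AT1G45000, was not called either, at 0.021 (adjusted p = 0.847, limma).

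CcdA gave 2186 to 2518 (median 2359) in the dark and 1897 to 2303 (median 1996) in the light, with a difference of 0.20 ± 0.070 (SE; adjusted p = 0.0329, limma). AT1G67280 gave 4090.2 to 4609 (median 4484) in the dark and 3565 to 4635 (median 3883) in the light, with 0.18 ± 0.063 (SE; adjusted p = 0.0313, limma). AT4G39520 was lower in the dark, at 1134 to 1348 (median 1265) against 1310.3 to 1530.1 (median 1432) in the light, and fell by 0.18 ± 0.065 (SE; adjusted p = 0.0330, limma). With each array centred on its own median, the adjusted p was 0.0579 for RPN12a, 0.0749 for AT5G54750, 0.109 for AT5G05010, 0.135 for CcdA and 0.158 for AT1G67280, and those 5 calls were lost, while AT4G39520 was called. Over all 26 alternative fits the call was lost in 1 for RPN12a and AT5G54750, 8 for AT5G05010, 11 for CcdA, and 12 for AT1G67280 and AT4G39520, and for the last 4 genes mostly with 1 array left out.

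Between the genotypes no member was called over the day at an adjusted p under 0.05 (limma), where 0.0194% of all probe sets were called. At an unadjusted p under 0.05 there were 11 of 200 members and 244 of 1802 other abundant probe sets. The rule used these arrays, so nothing is read from the difference. At each of the 5 harvests alone no member was called either. The members at an unadjusted p under 0.05 were 7 at 1 h, 1 at 4 h, 5 at 8.5 h, 5 at 12 h and 3 at 16 h. The other abundant probe sets at that threshold were 183, 28, 189, 188 and 24 of 1802, in the same order. At an adjusted p under 0.05, the share of all probe sets called was 0.110% at 1 h and 0.0129% at both 4 h and 8.5 h. It was 0.0194% at 12 h and 0.0259% at 16 h. No member was called for genotype by time at an adjusted p under 0.05, where 0.00646% of all probe sets were called. None had an unadjusted p under 0.05 there, against 89 of the 1802 others. The Atss3 minus WT difference over the day ran from -0.21 to 0.15 on the log2 scale over the members, with a median of -0.035, and was above 0 for 66 of 200. For the other abundant probe sets the median was -0.022, with 782 of 1802 above 0, and the median of all probe sets was 0.0703 higher on the log2 scale on Atss3 than on WT arrays under the deposited scaling.

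The named members with the smallest p for genotype were AT5G36230, AT1G22700 and AT5G49540. AT5G36230 gave 2193 to 2698 (median 2419) in Atss3 and 2275 to 3437 (median 2685) in WT, a difference of -0.16 ± 0.059 (SE; adjusted p = 0.267, limma), with Atss3 above its WT partner from the same harvest and run in 1 of 10 cases. For AT1G22700 the difference was -0.17 ± 0.064 (SE; adjusted p = 0.285, limma), also above in 1 of 10. AT5G49540, an EMC6-type protein of the membrane insertion complex in the endoplasmic reticulum, gave 1373 to 1889 (median 1483) in Atss3 and 1587 to 1904 (median 1745) in WT, a difference of -0.17 ± 0.068 (SE; adjusted p = 0.307, limma). The genotypes overlapped in all 3.

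Between the runs 6 members were called, 2 higher and 4 lower in run 2, where the fit called 17.2% of everything tested, 8.97% as higher and 8.27% as lower. AT3G48420, a chloroplast sugar-phosphate phosphatase, gave 3014 to 3899 (median 3282) in run 2 and 3538 to 4544 (median 3978) in run 1, and fell by 0.25 ± 0.069 (SE; adjusted p = 0.0276, limma). AT5G07020 gave 2947 to 4313 (median 3554) in run 2 and 3715 to 4825 (median 4292) in run 1, and fell by 0.23 ± 0.072 (SE; adjusted p = 0.0467, limma). AT2G23090 was higher in run 2, at 4045 to 5085 (median 4509) against 3385 to 4668 (median 3905) in run 1, by 0.22 ± 0.064 (SE; adjusted p = 0.0357, limma). The call of AT5G07020 was lost in 19 of 25 alternative fits, with an adjusted p of up to 0.101. AT3G48420 and AT2G23090 were named after their values were seen. Runs overlapped in each of the 3 genes, and the count of 6 ranged from 0 to 7 with 1 array left out, lower by more than 1.5 times for every array but the 2 of Atss3 16 h and the 2 of WT 1 h.

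The movement of the members as a group is given as a description, since they were chosen for small spread over these same arrays. The mean log2 signal of the 200 on an array deviated from its mean over the 20 arrays by -0.090 to 0.073, with an SD of 0.041, against an SD of 0.037 for the other abundant probe sets. The lowest array was Atss3 1 h replicate 1, which held the lowest value of 38 members. The highest were WT 12 h replicate 1 and Atss3 16 h replicate 1, which held the highest value of 28 and 27 members. The same 3 arrays stood at -0.064, 0.040 and 0.063 for the other abundant probe sets.

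**Figure D5:**
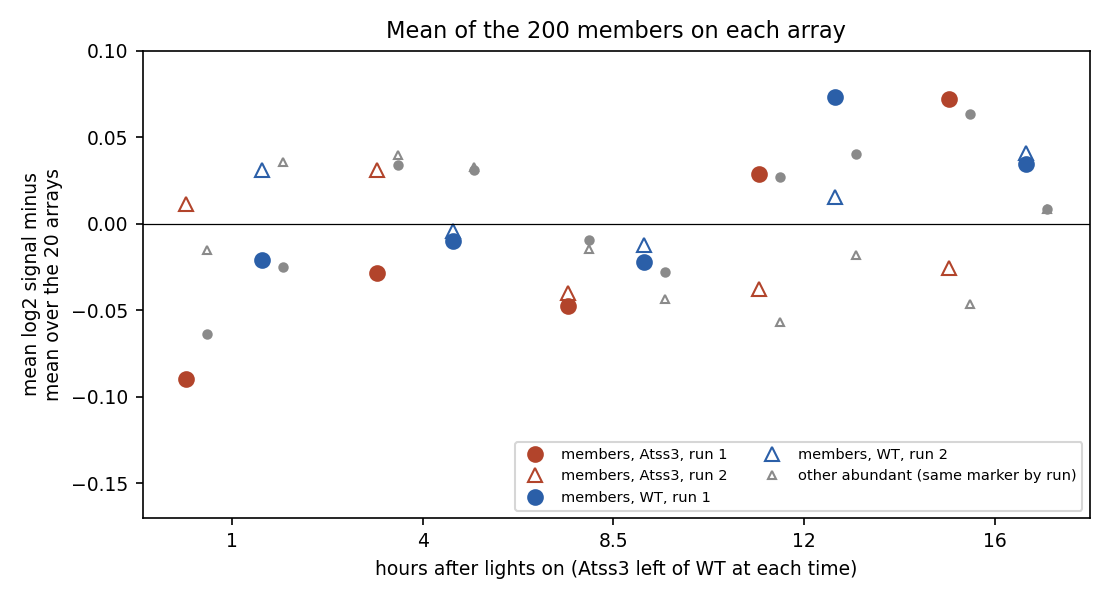
Mean log2 signal of the 200 members on each array minus its mean over the 20 arrays (coloured, Atss3 left of WT) and the same for the 1802 other abundant probe sets (grey), against hours after lights on, with run 1 filled and run 2 open. Member means lie between -0.090 at Atss3 1 h, run 1, and 0.073 at WT 12 h, run 1.

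The members' first principal component held 18.9% of their variation, against 39.4% for the other abundant probe sets and 5.26% if spread evenly. Small spread was the criterion of choice, so nothing is read from the difference between members and others. Over the 20 arrays the median correlation between 2 members, among 19900 pairs that share arrays and scaling, was 0.0726. The SD of the log2 ratio of 2 members, which does not depend on the scaling of an array, had a median of 0.208 and ran from 0.0809 to 0.323.

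The members had a slightly larger median SD in the mutant. It was 0.160 over the 10 Atss3 arrays, against 0.144 over the 10 WT arrays, and 79 of 200 members (39.5%) had the smaller SD in Atss3. The other abundant probe sets gave 0.318 and 0.293, and 738 of 1802 (41.0%) had the smaller SD in Atss3. The lower count in Atss3 was thus found in members and others alike, and the difference between those shares was not tested.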

How the data were processed

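Per the labels, total RNA was biotin-labelled and read on 1-colour arrays. The deposited values are linear signal intensities, made by the authors with MAS5 per the submitters' processing notes (MAS5 version: not given in the sources used here). Array averages were set equal by the authors' scaling, so changes in total RNA cannot be seen. Gene names came from the platform annotation, updated through the TAIR10.1 gene table; no coordinates or sequences were used. The members and lists were chosen with earlier results of these data known. Signals were raised to at least 1 before log2. The fit took probe sets whose signal passed the 40th percentile of an array on 2 arrays or more. limma 3.58.1 (R 4.3.3) fitted 10 group means with the run as a block (9 residual and 3.45 prior degrees of freedom); p-values are 2-sided, adjusted by Benjamini-Hochberg within a contrast, with a threshold of 0.05. It was checked on simulated data with no run effect and with changes larger than any seen in the members. Recovery of changes as small as theirs was not checked. Per the labels, the replicate number marks the run. Deviations of same-numbered samples correlated above 0.1 in 41 of 45 pairs of groups (median 0.199). Named members were the 12 smallest SDs with 1 gene, the 3 brightest and 3 dimmest, up to 3 per functional list, the 3 smallest adjusted p for time and 3 for genotype, the genes around rank 200, and reference genes. The number of arrays limits precision. Python 3.11.15, pandas 2.3.3, numpy 2.4.6 and matplotlib 3.10.9 were used. Alternatives covered the floor, the measure of spread, scaling, filter, prior, block and each array left out.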

Additional observations from a re-analysis of the deposited data

Results flagged for a closer look

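THX, the chloroplast thioredoxin x gene, had 1 high array among the 10 of Atss3. At Atss3 16 h replicate 1 its signal was 8307, while the other 9 Atss3 arrays ran from 5465 to 6822, and on the log2 scale the gap to the nearest was 0.470 of the whole range, just above Dixon's 95% critical value for 10 samples. This array also held the highest value of 27 members. Among 72 groups of 10 arrays looked at, 1 stood out in this way, and chance gives about 1 in 20.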

How the results depend on the processing

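The replicate number marks the run and was kept as a block. With no replicate block 7 members were called over time in place of 22, and the block moved no other count of called members by over 1.5 times. Other counts for time were 14 with arrays centred on their medians, 46 with quantile normalization, 9 with no filter on low signals, 36 with an intensity trend in the prior variance, and 7 to 19 with 1 array left out. For dark minus light, 62 were called with quantile normalization and 22 to 33 with 1 array left out. For the runs, 0 were called with no filter and 0 to 7 with 1 array left out. Genotype and genotype by time gave 0 in all 26 alternative fits. The number of eligible probe sets, 2002, was 3890 with a floor of 500, 888 with 2000, 3586 with a mean of at least 1000, and 2003 to 2047 with 1 array left out. Members also chosen numbered 113 with a floor of 2000, 119 by median absolute deviation, 115 in run 1, 109 in run 2, 104 in WT, 127 in Atss3, and 166 to 194 with 1 array left out. The median SD of the 200 was 0.173 with arrays centred on their medians, 0.141 in run 2 alone, 0.144 in WT alone and 0.152 to 0.159 with 1 array left out. Numbers under the others' median in the other 10 arrays changed to 189, 181, 182 and 182 with centring. Respiratory members numbered 5 to 18 over the alternatives. The cause of each change was not tested. No promoter or protein comparison was run, since no sequences were used here.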
